A study of Mus musculus with 6 samples.

Results

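The genes described here build, fold and ship secreted and membrane proteins in the endoplasmic reticulum (ER), followed across 3 levels of induction of the reprogramming factors Oct4, Sox2, Klf4 and Myc in mouse small intestinal organoids. They were chosen by name: every symbol of the Sec11, Sec13, Sec16, Sec22, Sec23, Sec24, Sec31, Sec61, Sec62 and Sec63 families, the protein disulfide isomerases of the Pdia series, the Ssr, Spcs and Srp subunits, the Cop coat subunits, and 11 named chaperones and stress sensors. The rule found 62 genes among 55416 gene identifiers, and all 62 passed the filter on low counts that left 16975 genes for testing.

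Organoids are gel-embedded cultures of gut epithelium. All came from mice aged 4 to 8 weeks and carried 2 copies each of the Rosa26-rtTA and Col1A1-TetO-OSKM transgenes, the control group included; the first places the doxycycline-dependent activator at a broadly active locus and the second carries the factors under its promoter. Controls had no doxycycline, and the other groups had a low dose (0.1 µg/ml) or a high dose (0.5 µg/ml) for 3 days, with 2 libraries in each group. Since no group had doxycycline without the transgenes, the agent and the factors cannot be told apart. The labels call the libraries biological replicates without saying whether they are separate mice or cultures, so p-values measure the spread between these samples.

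Library depth ran from 45289708 to 72547709 expected counts. The 4 factors summed to 38.9 and 40.4 TPM (the share of transcripts scaled to a fixed total, a level per transcript length) in control, 526 and 555 at the low dose, and 1734 and 1896 at the high dose, in the order of the labelled doses. The 13 mitochondrially encoded protein genes, a check of RNA quality, summed to 171900 and 163600 TPM in control. Their sums were 178400 and 172800 at the low dose, and 201700 and 162500 at the high dose. Vil1, the brush border protein villin, lay between 177 and 282 TPM in the 6 libraries, while Col3a1 of fibroblasts, Cdh5 and Kdr of endothelium and Adgre1 of immune cells were at 0 in all 6. Other markers of these cells were not all flat: the 8 immune markers summed to 3.08 and 2.48 TPM in control and 14.5 and 14.4 at the high dose, of which Cd68 made up 14.3 and 14.2. The 5 endothelial markers summed to 1.41 TPM or less and the 8 fibroblast markers to 4.09 or less in every library. At the high dose both tested immune and both tested endothelial markers were called higher, and of 4 tested fibroblast markers 2 rose and 2 fell. Markers of goblet and Paneth cells, the secretory cells of the crypt, were mostly lower at the high dose: 11 of 15 and 9 of 11 tested fell, and 3 and 1 rose. The 15 goblet markers summed to 2926 and 3138 TPM in control, 1562 and 1770 at the low dose, and 510 and 565 at the high dose. The 12 Paneth markers summed to 4254 and 4657, 1284 and 1654, and 646 and 689 TPM in the same order. The 11 enterocyte markers summed to 1882 and 2487, 2552 and 3274, and 1277 and 1344 TPM, with 6 lower and 2 higher at the high dose. Fewer cells of a type and less RNA per cell cannot be told apart in these bulk libraries, and the part of these cell types, markers of other tissues included, in the values below was not tested.

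A protein bound for secretion is caught at its signal sequence by the signal recognition particle, threaded through the Sec61 channel with the help of the translocon-associated (TRAP) complex, and trimmed by signal peptidase. Chaperones and disulfide isomerases fold it, and the sensors Ern1 (IRE1) and Atf6, with the factor Xbp1 that IRE1 activates by splicing, adjust the machinery to the load. COPII coats then carry cargo out towards the Golgi and COPI coats carry material back, a traffic that is heavy in goblet and Paneth cells.

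The letters that Xbp1 and Atf6 are known to bind were searched in the promoters of these genes, because the results turn on the sensors, the chaperones and the COPII coat. RefSeq promoter sequences of build GRCm38.p6, from 250 bases before to 50 after each start, were in the table for 54 of the 62 genes. None was there for Atf6, Hyou1, Sec11c, Sec61a1, Spcs3, Srp19, Srp68 and Ssr2, so these were not searched. The search covered both strands for the ER stress element ERSE (CCAAT, then 9 bases of any kind, then CCACG), ERSE-II (ATTGG, then 1 base of any kind, then CCACG), the unfolded protein response element UPRE (TGACGTGG or TGACGTGA) and the cyclic AMP element CRE (TGACGTCA). The CCACG end of the ERSE also forms the start of the UPRE read on the other strand, CCACGTCA. The sequences below run 5′ to 3′ on the gene's own strand, with capitals for the matched letters and the start site counted as position 0. Sec16b and Sec24d are shown as the COPII genes that fell most, Hspa5 as the gene with both elements, Calr and Pdia6 as ERSE genes that moved in opposite directions, and Pdia5 as the gene with the largest fold among well-expressed members and no match.
Sec16b, chr1:157506722-157506789, plus strand: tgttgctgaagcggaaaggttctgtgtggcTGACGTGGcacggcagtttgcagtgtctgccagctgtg
Sec24d, chr3:123267440-123267495, plus strand: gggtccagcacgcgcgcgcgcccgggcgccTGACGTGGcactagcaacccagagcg
Hspa5, chr2:34771903-34772073, plus strand: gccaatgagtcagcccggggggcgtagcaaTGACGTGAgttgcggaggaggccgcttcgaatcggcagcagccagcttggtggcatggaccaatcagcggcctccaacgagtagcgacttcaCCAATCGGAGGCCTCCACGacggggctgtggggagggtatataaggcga
Calr, chr8:84847045-84847123, minus strand: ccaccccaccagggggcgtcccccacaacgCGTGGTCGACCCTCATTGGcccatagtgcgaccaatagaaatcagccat
Pdia6, chr12:17266461-17266539, plus strand: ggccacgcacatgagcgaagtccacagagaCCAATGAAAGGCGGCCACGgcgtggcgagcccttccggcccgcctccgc
Pdia5, chr16:35490874-35490993, minus strand: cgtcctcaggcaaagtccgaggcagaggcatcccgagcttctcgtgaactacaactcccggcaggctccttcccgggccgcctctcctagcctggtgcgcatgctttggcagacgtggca

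The ERSE stood in the promoters of 5 of the 54 genes (9.26%), namely Calr, Canx, Hsp90b1, Hspa5 and Pdia6, against 0.137% of 27025 genes in the table. Hsp90b1 held 2 matches. The UPRE stood in 6 (11.1% against 1.22%): Copb1, Copb2, Hspa5, Sec16b, Sec23a and Sec24d. Its letters lay at positions -44 to -37 in Sec16b, -26 to -19 in Sec24d, and 6 to 13 after the start in Sec23a. Sec16b has a further promoter entry in the table, which held no match. ERSE-II was found in Dnajb11 (1.85% against 0.0444%) and the CRE in Cope (1.85% against 2.03%). The genes were chosen by name for their role in the ER, and the differences between these shares were not tested. A match is a run of letters and not a shown binding site, and no match says only that these letters are not in this window.

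At 0.5 µg/ml more of these genes fell than rose, mostly by small amounts. Of 62, 32 were lower than control, 15 higher and 15 not called by edgeR's quasi-likelihood test, where a call is a Benjamini-Hochberg adjusted p under 0.05 over all tested genes. That is 75.8% called, against 67.5% of all tested genes, of which 34.4% were higher and 33.1% lower. Among the 3378 genes between the members' lower and upper quartiles of expression, 77% were called, 44.1% higher and 32.9% lower. The members' median log2 fold change was -0.12, against -0.0045 for all tested genes and 0.06 for those of like expression. With total counts or upper quartile scaling it was -0.21, and with limma on log2(TPM + 1) -0.20. Changes past 2-fold were seen in 3 called members, Copz2, Pdia5 and Sec16b, against 27.1% of all tested genes and 11.9% of those of like expression. In CPM (counts scaled to library size) 55 members did not overlap control (84.1% of all tested genes), and 55 of the 62 had a log2 fold change within 0.5 of 0.

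At 0.1 µg/ml, 14 members were higher than control and 5 lower (30.65% called, against 34.6% of all tested genes: 20.8% higher and 13.8% lower), with a median log2 fold change of 0.06 and 0 members past 2-fold at any p (9.65% of all tested genes were called and past 2-fold). Between 0.1 and 0.5 µg/ml, 31 were lower at the higher dose and 9 higher (64.5%, against 58.9%: 29.1% lower and 29.8% higher), with a median of -0.13, and 57 did not overlap in CPM (80.7% of all tested genes). Among the 3378 genes of like expression, 42.3% were called at 0.1 µg/ml (28.4% higher and 13.9% lower), and 2.81% were called and past 2-fold. Between the doses 70.3% of those genes were called, 31.5% lower and 38.8% higher. The comparisons share libraries, control in one pair and 0.1 µg/ml in another, and are not independent of each other. Summed over the 62 genes, the level was 5653 and 5895 TPM in control, 5577 and 5715 at the low dose, and 4983 and 5222 at the high dose. The libraries at 0.5 µg/ml were the lowest, and those at 0.1 µg/ml overlapped control.

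The median and the counts at 0.1 µg/ml depended on the scaling and on single libraries. The median was 0.02 with upper quartile scaling, total counts or limma, 0.01 without the first 0.1 µg/ml library, 0.03 without either control library, and 0.04 without either 0.5 µg/ml library. Without the first 0.1 µg/ml library, 3 members were higher and 0 lower, with 9 lower at an unadjusted p under 0.05. Without the first control library, 5 were higher and 9 lower. Of the calls in each comparison, 30 of 47 at 0.5 µg/ml, 1 of 19 at 0.1 µg/ml (Pdia5) and 24 of 40 between the doses were kept under all 16 alternative settings.

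**Figure D1:**
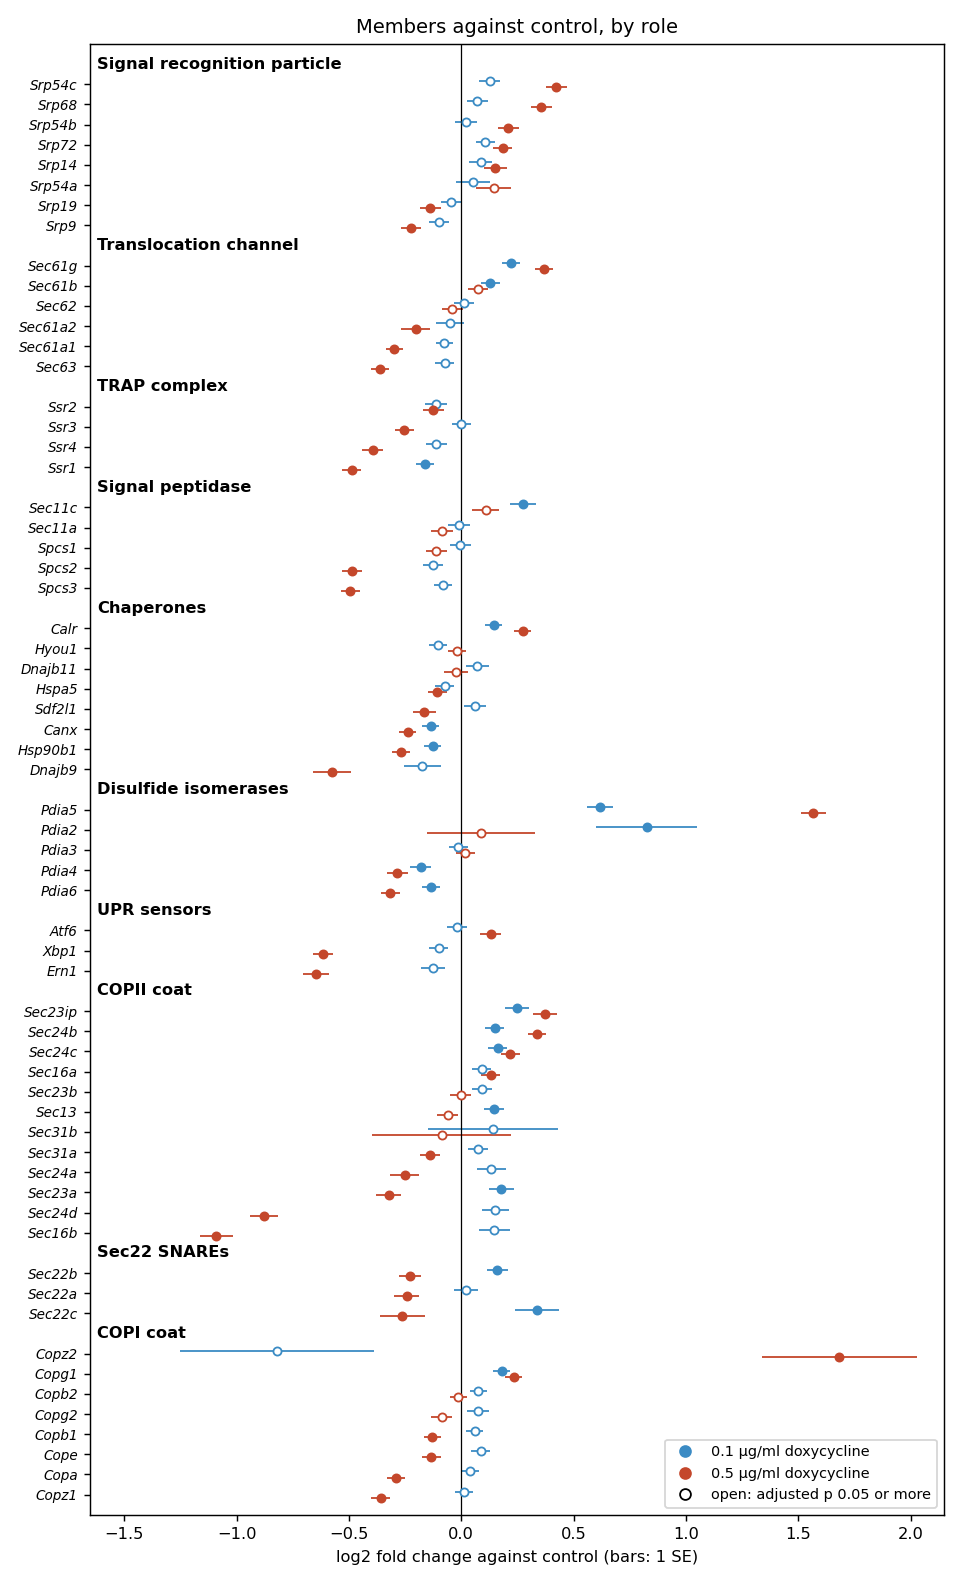
Log2 fold change of each of the 62 genes by role, at 0.1 and at 0.5 µg/ml against control, from edgeR with bars of 1 standard error; open circles have an adjusted p of 0.05 or more. Most genes lie within 0.5 of 0, while Pdia5 and Copz2 lie far to the right and Sec16b and Sec24d far to the left at 0.5 µg/ml.

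The factor Xbp1 and the sensor Ern1 gave some of the clearest falls. Xbp1 measured 127 and 139 TPM in control, 121 and 121 at the low dose, and 81.6 and 82.6 at the high dose. Both 0.5 µg/ml libraries lay below all 4 others, with a log2 fold change of -0.61 ± 0.04 (SE; adjusted p = 9.99e-07, edgeR). Between the doses it fell by 0.51, and at 0.1 µg/ml it was not called (log2 fold change -0.10, adjusted p = 0.101).

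Ern1, the kinase and nuclease that splices Xbp1 RNA, followed the same order. Its levels were 8.98 and 11.5 TPM in control, 9.16 and 8.87 at the low dose, and 5.90 and 5.78 at the high dose. The 0.5 µg/ml libraries again lay below the other 4, a log2 fold change of -0.65 ± 0.06 (adjusted p = 4.46e-06). These tables hold gene totals, so spliced and unspliced Xbp1 RNA were not separated here.

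Atf6, the sensor that is cut in the Golgi to release a transcription factor, did not go with them. It stood at 11.03 and 11.8 TPM in control, 11.01 and 10.95 at the low dose, and 11.7 and 11.6 at the high dose. Control and the high dose overlapped in TPM, the low-dose libraries lay just below both, and the call for higher counts at 0.5 µg/ml (log2 fold change 0.13, adjusted p = 0.0274) held in 5 of 16 alternative settings.

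**Figure D2:**
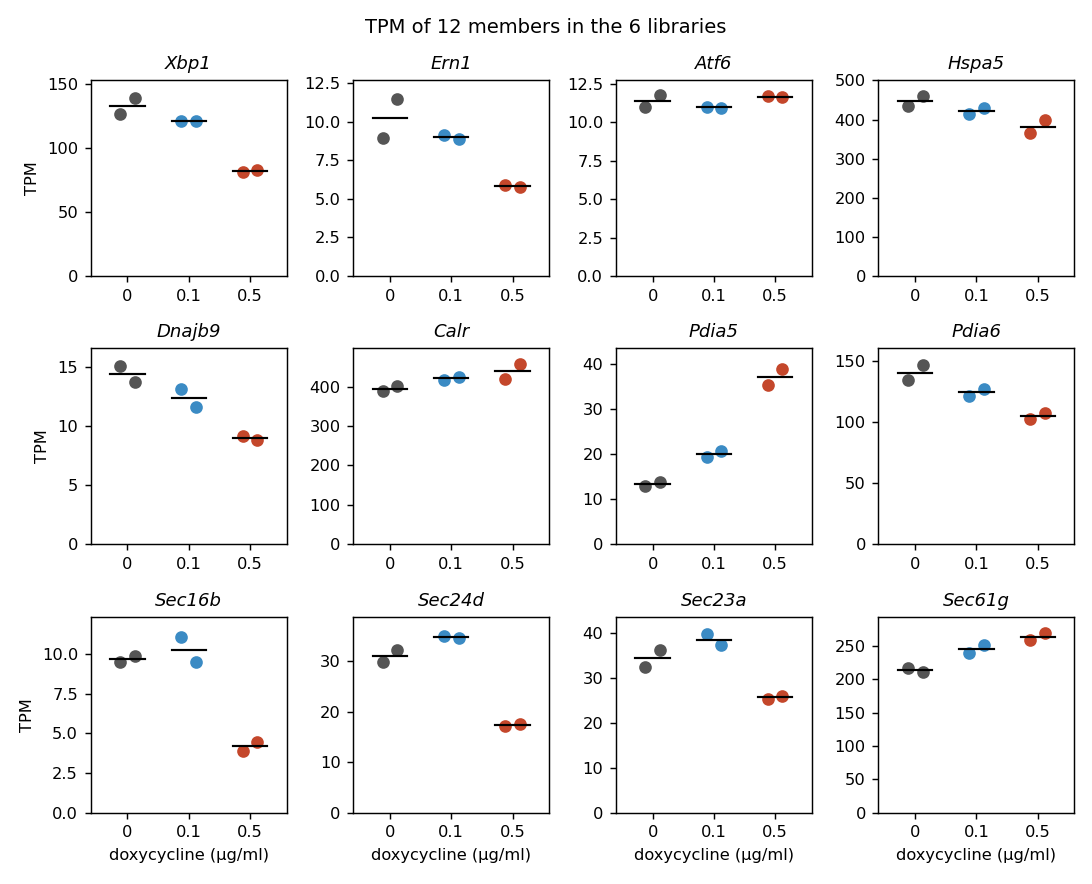
TPM in each of the 6 libraries for 12 genes of the list, by doxycycline dose in µg/ml, on linear axes that start at 0; points are libraries and horizontal lines are group means. Xbp1, Ern1, Dnajb9, Sec16b and Sec24d are lowest at 0.5 µg/ml, and Pdia5 climbs with dose.

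Among the 8 chaperones, 5 fell at 0.5 µg/ml, 1 rose and 2 were not called, with a median log2 fold change of -0.14. The shares are 62.5% lower and 12.5% higher, against 33.1% and 34.4% of all tested genes. Without the first control library, or without the first 0.5 µg/ml library, 3 fell. Dnajb9 (ERdj4), a co-chaperone of BiP, fell most: 15.0 and 13.7 TPM in control, 13.1 and 11.6 at the low dose, and 9.18 and 8.81 at the high dose (log2 fold change -0.58 ± 0.09, adjusted p = 1.95e-04). Its 0.5 µg/ml libraries were below the rest. Hsp90b1 (GRP94), the ER's Hsp90, fell from 305 and 327 TPM to 236 and 251 (log2 fold change -0.27), and Canx, a membrane lectin that holds unfinished glycoproteins, from 232 and 243 to 184 and 196 (-0.24). Both were also lower at 0.1 µg/ml, by 0.13 and 0.14 on the log2 scale.

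Hspa5 (BiP), the main Hsp70 of the ER, changed little. Its levels were 435 and 460 TPM in control, 415 and 431 at the low dose, and 365 and 399 at the high dose. The 0.5 µg/ml libraries were the lowest in TPM, but in CPM they overlapped those at 0.1 µg/ml. Between the doses Hspa5 was not called (log2 fold change -0.03, adjusted p = 0.518). Against control, the log2 fold change of -0.11 (adjusted p = 0.0483) was called in only 9 of 16 alternative settings. That call was lost without either control library, among others.

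Calreticulin (Calr), the soluble relative of Canx, went the other way. It stood at 388 and 401 TPM in control, 416 and 426 at the low dose, and 420 and 457 at the high dose. Both treated groups were above control and overlapped each other in TPM, and Calr rose by 0.27 ± 0.04 on the log2 scale at 0.5 µg/ml (adjusted p = 1.15e-04). The stress-induced Sdf2l1 fell by 0.16, whereas the nucleotide exchange factor Hyou1 (log2 fold change -0.02, adjusted p = 0.687) and the co-chaperone Dnajb11 (-0.02, adjusted p = 0.706) were not called.

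The genes that share an ERSE thus did not share a direction: Calr rose, while Canx, Hsp90b1, Pdia6 and Hspa5 fell. With the members left out, 15 other tested genes hold an ERSE in the table, of which 33.3% were higher and 33.3% lower at 0.5 µg/ml. For the UPRE, 195 other tested genes were 37.9% higher and 32.8% lower, against 36.4% and 36.2% of all 11469 tested genes with a promoter in the table. Of the 6 members with a UPRE, 5 fell at 0.5 µg/ml and Copb2 was not called (log2 fold change -0.01).

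Pdia5, a disulfide isomerase, had the strongest rise among well-expressed members. It measured 12.8 and 13.9 TPM in control, 19.4 and 20.7 at the low dose, and 35.3 and 38.9 at the high dose. The 3 groups did not overlap and stood in dose order. It was 2.96-fold above control at 0.5 µg/ml (log2 fold change 1.57 ± 0.06, adjusted p = 7.19e-09), 1.53-fold at 0.1 µg/ml (adjusted p = 3.03e-05), and 1.93-fold higher at 0.5 than at 0.1 µg/ml (adjusted p = 3.77e-07). These calls held under all 16 alternative settings.

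None of its 4 relatives was called higher at 0.5 µg/ml. Pdia6 fell by 0.32 and Pdia4 by 0.28 on the log2 scale at 0.5 µg/ml, and Pdia3 (ERp57), the partner of calnexin and calreticulin and the most abundant of the family at 247 TPM on average in control, was not called (log2 fold change 0.02, adjusted p = 0.74). Pdia4 and Pdia6 were also lower at 0.1 µg/ml, by 0.18 and 0.13. Pdia2, a family member at low level here, was 1.19 and 1.85 TPM in control, 2.88 and 2.32 at the low dose, and 1.27 and 1.73 at the high dose. Its 0.1 µg/ml libraries were the highest (log2 fold change 0.82, adjusted p = 0.0187). That call held in 11 of 16 alternative settings. It was lost with limma on TPM, and without the first control library or the first 0.1 µg/ml library.

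By edgeR, more genes of the signal recognition particle rose than fell. At 0.5 µg/ml 5 of its 8 genes rose, 2 fell and 1 was not called, with a median log2 fold change of 0.17. That is 62.5% higher and 25.0% lower, against 34.4% and 33.1% of all tested genes. Upper quartile scaling or total counts left 3 higher, and limma on TPM left 2, with the 2 falls still called in each. Summed over the 8 genes, the level was 416 and 426 TPM in control, 414 and 409 at the low dose, and 417 and 432 at the high dose. Srp68, which binds the particle's RNA together with Srp72, was 50.5 and 52.8 TPM in control, 53.3 and 52.5 at the low dose, and 58.7 and 64.6 at the high dose. It was highest in the 0.5 µg/ml libraries, by 0.36 ± 0.05 on the log2 scale (adjusted p = 7.88e-05). Srp9, which together with Srp14 slows translation, was 83.9 and 84.3 TPM in control, 77.6 and 74.2 at the low dose, and 67.7 and 67.0 at the high dose (log2 fold change -0.22, adjusted p = 0.00173). Srp14, the partner of Srp9, had a log2 fold change of 0.15 whose call held in 4 of 16 alternative settings, and was lost without any 1 control or high-dose library. Srp19 fell by 0.14.

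Srp54a, Srp54b and Srp54c are near-identical copies of the subunit that reads the signal sequence, so how reads were divided among them is uncertain. Srp54c rose by 0.42 and Srp54b by 0.21, and Srp54a was not called (0.14, adjusted p = 0.123). Summed, the copies stood at 101 and 102 TPM in control, 100.5 and 99.96 at the low dose, and 113 and 118 at the high dose, with the last pair above the other 4. At 0.1 µg/ml, 0 of the 8 genes of the particle were called by edgeR and 0 by DESeq2, and 2 had an unadjusted p under 0.05 in edgeR. By edgeR 34.6% of all tested genes and 42.3% of those of like expression were called there.

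In the Sec61 channel the gamma and alpha subunits moved in opposite directions. Sec61g, the small gamma subunit, was 218 and 211 TPM in control, 239 and 251 at the low dose, and 259 and 269 at the high dose. The groups stood in dose order without overlap, with log2 fold changes of 0.22 (adjusted p = 0.00224) and 0.37 ± 0.04 (adjusted p = 2.42e-05). Sec61a1, the pore itself, was 143 and 146, 134 and 137, and 112 and 114 TPM in the same order, and fell by 0.30 at 0.5 µg/ml (adjusted p = 6.11e-05). Its paralog Sec61a2 fell by 0.20, with 13.8% of the summed Sec61a TPM in control and 13.7% at 0.5 µg/ml. Sec63, which ties the channel to BiP, fell by 0.36, while its partner Sec62 (-0.04, adjusted p = 0.465) and Sec61b (0.08, adjusted p = 0.152) were not called. Sec61b was called higher at 0.1 µg/ml (adjusted p = 0.0437), a call that held in 0 of 16 alternative settings.

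All 4 TRAP genes fell at 0.5 µg/ml, against 33.1% of all tested genes. Their median log2 fold change was -0.32, with all 4 below 0 under every alternative setting. Ssr1, the alpha subunit, was 65.8 and 72.1 TPM in control, 57.2 and 62.8 at the low dose, and 48.1 and 48.5 at the high dose. The groups did not overlap, and the log2 fold changes were -0.16 (adjusted p = 0.0132) and -0.49 ± 0.04 (adjusted p = 3.50e-06). Ssr4 fell by 0.39 and Ssr3 by 0.25, and Ssr2 was nearest to no change (-0.12, adjusted p = 0.0415), a call lost in 7 of 16 alternative settings, among them the replicate number as a block and the fits without any 1 control or high-dose library. Summed TRAP TPM was 705 and 753 in control, 647 and 681 at the low dose, and 563 and 566 at the high dose, next to the falling goblet and Paneth marker sums given above.

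Of the 5 signal peptidase genes, 2 fell at the high dose (40.0%, against 33.1% of all tested genes) and 3 were not called. Spcs3, an accessory subunit, was 45.9 and 47.8 TPM in control, 42.3 and 44.1 at the low dose, and 30.97 and 31.02 at the high dose. It fell by 0.49 ± 0.04 on the log2 scale (adjusted p = 3.50e-06), and Spcs2 fell by 0.48, both with the 0.5 µg/ml libraries below the rest. The accessory Spcs1 (-0.11, adjusted p = 0.0573) and the catalytic Sec11a (-0.08, adjusted p = 0.144) and Sec11c (0.11, adjusted p = 0.139) were not called. Sec11c was higher at 0.1 µg/ml (0.28, adjusted p = 0.00566). That call held in 12 of 16 alternative settings, and was lost with limma on TPM and without the first 0.1 µg/ml library. Sec11c made up 37.6% of the summed Sec11 TPM in control, 41.2% at 0.1 µg/ml and 39.4% at 0.5 µg/ml.

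Paralogs of the COPII coat moved in opposite directions. At 0.5 µg/ml 5 of its 12 genes fell, 4 rose and 3 were not called. That is 41.7% lower and 33.3% higher, against 33.1% and 34.4% of all tested genes. Sec24d, one of 4 cargo-binding Sec24 adaptors, was 29.8 and 32.3 TPM in control, 35.1 and 34.6 at the low dose, and 17.1 and 17.6 at the high dose. Its 0.5 µg/ml libraries lay far below the other 4 (log2 fold change -0.88 ± 0.06, adjusted p = 9.84e-07), and between the doses it fell by 1.03 (adjusted p = 5.95e-07). Sec24a fell by 0.25, whereas Sec24b rose by 0.34 and Sec24c by 0.22, although the call for Sec24c was lost with limma on TPM.

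Sec24d made up 20.7% and 20.7% of the summed Sec24 TPM in the control libraries, 20.8% and 21.2% at the low dose, and 12.4% and 12.01% at the high dose. The share of Sec24c was 52.9% and 53.2% in control and 58.5% and 60.0% at 0.5 µg/ml, and that of Sec24b 14.1% and 14.01% against 17.5% and 17.6%. For all 3 paralogs the 0.5 µg/ml shares stood outside the range of the other 4 libraries. The shares were not tested. Between any 2 dose groups, an exact two-sided permutation test of 2 against 2 libraries cannot go below p = 0.333.

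Sec16b, a scaffold of the sites where COPII vesicles form, was 9.47 and 9.84 TPM in control, 11.1 and 9.47 at the low dose, and 3.89 and 4.48 at the high dose. It was 2.13-fold lower at 0.5 µg/ml (log2 fold change -1.09 ± 0.07, adjusted p = 6.46e-07), with control and 0.1 µg/ml overlapping. Its share of the summed Sec16 TPM was 24.3% and 24.2% in control, 25.8% and 22.5% at the low dose, and 11.98% and 13.1% at the high dose. The paralog Sec16a had a called log2 fold change of 0.13 (adjusted p = 0.0198), which turned to -0.05 with limma on TPM.

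Sec23a, of the inner coat, was 32.5 and 36.4 TPM in control, 39.8 and 37.4 at the low dose, and 25.4 and 26.2 at the high dose. The 0.5 µg/ml libraries were the lowest and the 0.1 µg/ml libraries the highest, and Sec23a fell by 0.32 against control (adjusted p = 5.97e-04) and by 0.50 between the doses (adjusted p = 4.13e-05). Its share of Sec23 TPM was 36.8% in control and 31.8% at 0.5 µg/ml, since the counts of Sec23b were near control (log2 fold change -0.0032, adjusted p = 0.954). The Sec23-interacting protein Sec23ip rose by 0.37. In the outer coat, Sec31a fell by 0.14, Sec31b stood at 0.27 TPM or less in every library, and Sec13 was not called (-0.06, adjusted p = 0.272).

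**Figure D3:**
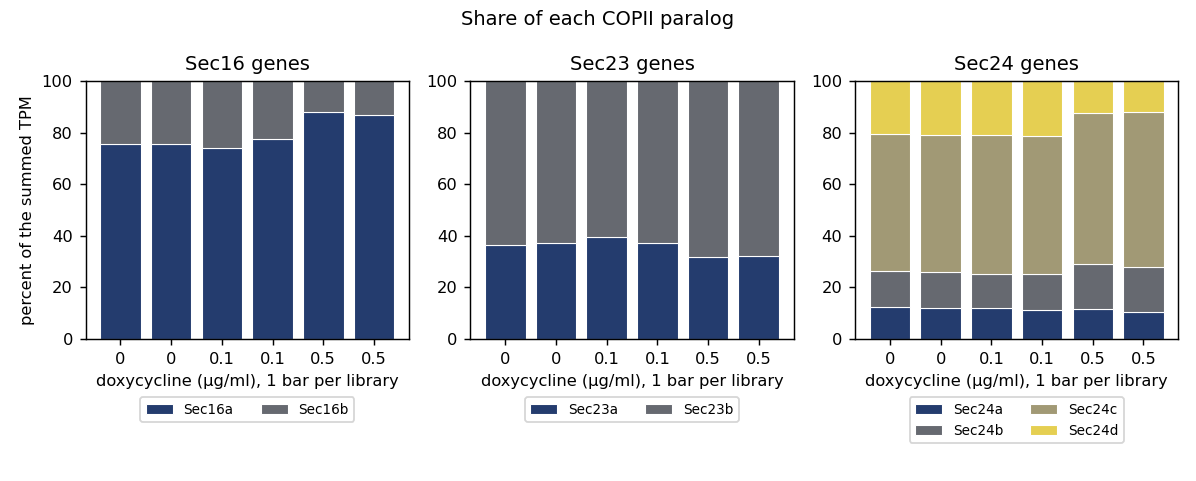
Share of each paralog in the summed TPM of its COPII family, in percent, in each of the 6 libraries by doxycycline dose in µg/ml; each stacked bar is 1 library of the Sec16, Sec23 or Sec24 genes. Sec24d and Sec16b take smaller shares at 0.5 µg/ml than in any control or 0.1 µg/ml library.

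At 0.1 µg/ml all 12 COPII genes had a log2 fold change above 0, as had 52.6% of all tested genes, with a median of 0.15. Their CPM did not overlap control, which held for 67.8% of all tested genes in either direction. The 0.1 µg/ml median stayed above 0 under all 16 alternative settings, from 0.08 to 0.17. The calls were weaker: 5 of 12 passed (Sec23ip, 0.25; Sec23a, 0.18; Sec24c, 0.16; Sec24b, 0.15; Sec13, 0.15), 1 passed without the first 0.1 µg/ml library or without the first control library, and 0 with limma on every gene with TPM above 0, where 2 had an unadjusted p under 0.05. The 5 calls of the main fit, all higher, are 41.7% of the 12 genes. Called higher were 20.8% of all tested genes and 28.4% of those of like expression. Summed COPII TPM was 495 and 530 in control, 560 and 547 at the low dose, and 465 and 474 at the high dose. The enterocyte marker sum given above had the same order of the groups. So did the group means of the COPI (561, 575 and 479 TPM), Sec22 (65.8, 69.8 and 52.2) and channel (707, 738 and 705) sums. Sec22 sums at the low dose and channel sums at the high dose overlapped control. The part of enterocytes in these sums was not tested. Both comparisons use the 0.1 µg/ml libraries or control, so the fold changes share their noise.

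The Sec22 genes encode SNARE proteins, or relatives of them, that fuse vesicles between the ER and Golgi. All 3 fell at 0.5 µg/ml and between the doses, where 33.1% and 29.1% of all tested genes were lower. Sec22b was 43.2 and 43.1 TPM in control, 46.0 and 43.7 at the low dose, and 32.3 and 34.7 at the high dose (log2 fold change -0.23, adjusted p = 0.00199). The 0.5 µg/ml libraries were below the other 4. Sec22a fell by 0.24 and Sec22c by 0.26, but Sec22c overlapped control in TPM and its call (adjusted p = 0.0446) was lost in 8 of the 16 alternative settings. Sec22b made up 65.7% of the summed Sec22 TPM in control and 64.2% at 0.5 µg/ml. At 0.1 µg/ml Sec22b (0.16) and Sec22c (0.34) were called higher, neither without the first 0.1 µg/ml library.

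The COPI coat also held genes of both directions. At 0.5 µg/ml 4 of its 8 genes fell, 2 rose and 2 were not called, with a median log2 fold change of -0.11. Of all tested genes 67.5% were called there, 33.1% lower and 34.4% higher. Among genes of like expression 77% were called, 32.9% lower and 44.1% higher. Copz1, the zeta subunit, was 138 and 139 TPM in control, 133 and 137 at the low dose, and 100.4 and 101 at the high dose. The 0.5 µg/ml libraries stood well below the other 4 (log2 fold change -0.36 ± 0.04, adjusted p = 2.97e-05). Copa fell by 0.29, Cope by 0.13 and Copb1 by 0.13, and Copb1 made up 42.5% of the summed Copb TPM in control and 40.2% at 0.5 µg/ml.

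Copg1, a gamma subunit, was 60.2 and 61.9 TPM in control, 68.6 and 69.0 at the low dose, and 66.1 and 70.9 at the high dose. Both treated groups lay above control, with a rise of 0.18 at 0.1 µg/ml (adjusted p = 0.00579) and 0.23 at the high dose (adjusted p = 4.30e-04). Its share of Copg TPM went from 77.0% and 76.8% in control to 79.9% and 81.1% at 0.5 µg/ml, as Copg2 was not called (-0.09, adjusted p = 0.132). Copz2, the second zeta gene, was at low level: 0.61 and 0.57 TPM in control, 0.19 and 0.62 at the low dose, and 2.11 and 1.52 at the high dose. Its 0.5 µg/ml libraries were the highest (3.21-fold, log2 fold change 1.68 ± 0.34, adjusted p = 0.00166), yet it supplied 1.77% of Copz TPM there.

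**Figure D4:**
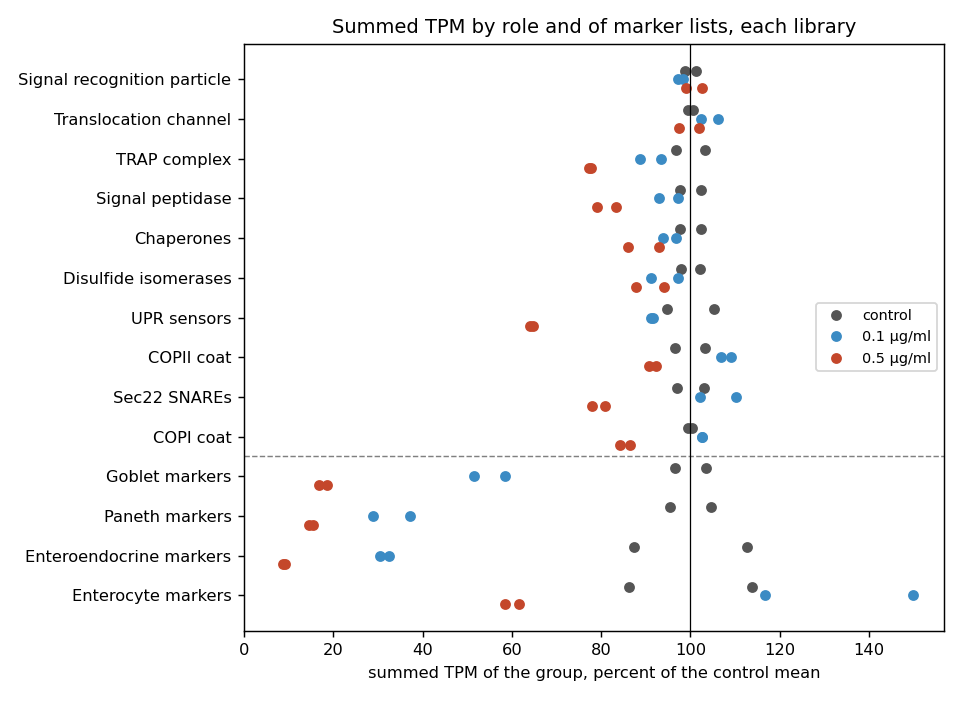
Summed TPM of the genes of each role and of 4 marker lists in each library, as percent of the control mean; points are libraries, coloured by dose. At 0.5 µg/ml the TPM sums of every role but the signal recognition particle and the channel lie below control, and the sensor sum is mostly Xbp1. Against the counts, limma on log2(TPM + 1) shifted the fold changes of all genes at 0.5 µg/ml by a median of -0.087. The part of that shift in these sums was not tested. Group means of the COPII, COPI, Sec22, channel and enterocyte sums are highest at 0.1 µg/ml. The goblet, Paneth and enteroendocrine sums are lowest at 0.5 µg/ml.

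Other genes of the pathway, from 4 lists, gave a like count. Of 99 tested at 0.5 µg/ml, 53 were lower, 24 higher and 22 not called, with a median log2 fold change of -0.17. That is 53.5% lower and 24.2% higher, against 33.1% and 34.4% of all tested genes. At 0.1 µg/ml 12 were lower and 16 higher (12.1% and 16.2%, against 13.8% and 20.8% of all tested genes). Among 16 further sensors and factors of the stress response, 9 fell and 3 rose at 0.5 µg/ml (56.25% and 18.75%). Creb3l4 and Creb3l1, membrane-bound relatives of Atf6 that also stand in the goblet marker list, fell by 2.45 and 2.08 on the log2 scale. Ern2 (IRE1 beta), the epithelial relative of Ern1, was 3.88 and 4.68 TPM in control, 3.53 and 4.47 at the low dose, and 1.55 and 1.16 at the high dose. Its 0.5 µg/ml libraries were below the other 4 (log2 fold change -1.56 ± 0.17, adjusted p = 2.11e-05), and at 0.1 µg/ml it was not called (-0.07, adjusted p = 0.758).

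The branch through the kinase PERK showed both directions. Eif2ak3, which encodes PERK, was not called (log2 fold change 0.20, adjusted p = 0.068), Atf4 rose by 0.25, and Ddit3 (CHOP), a target of Atf4, fell by 0.66. Chac1, a glutathione-degrading enzyme and another Atf4 target, rose by 1.18, and Creb3 rose by 0.57.

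Among 30 genes of ER-associated degradation and other stress targets, 13 fell and 7 rose at 0.5 µg/ml. Those are 43.3% and 23.3%, against 33.1% and 34.4% of all tested genes. The oxidase Ero1l fell by 0.72, while the reductase Dnajc10 (ERdj5) rose by 0.94 and the ubiquitin-conjugating enzyme Ube2g2 by 0.50. Of 21 partners of the channel and subunits of the oligosaccharyltransferase, 14 fell and 4 rose (66.7% and 19.05%). Tram2 fell by 1.14, at 1.22 TPM or less throughout, and Magt1, an oligosaccharyltransferase subunit, by 0.70. Emc2, a subunit of the membrane insertase EMC, rose from 37.3 and 41.5 TPM to 92.1 and 96.1 (log2 fold change 1.36), and Emc4 rose by 0.51. Of 32 partners of the vesicle coats, 17 fell and 10 rose (53.1% and 31.25%). The exit-site protein Mia2 fell by 0.89 and the SNARE Bet1 by 0.75, and the cargo receptor subunit Mcfd2 rose by 0.62 and Tmed9 by 0.49.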

How the data were processed

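Poly-A RNA of 6 organoid libraries was read as 100 bp pairs, per the labels' protocols. The tools listed include STAR 2.7.3a and RSEM 1.3.3, and Trim Galore and FastQC, per the submitters' processing notes; the strand setting of the counting and which genome build was used are not given in the sources used here, so no gene coordinates are taken from the tables. The authors deposited RSEM expected counts, which divide shared reads among genes by estimate, and a table of TPM for the same genes, scaled by length and to a fixed total, which carries no depth. Symbols came from the GENCODE M21 table for 52083 of 55416 identifiers (94.0%).

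Expected counts were rounded, filtered with filterByExpr by group and scaled by TMM (factors 0.964 to 1.04). The quasi-likelihood test of edgeR 4.0.16 (R 4.3.3) was fitted to all 6 libraries at once, with 3 residual degrees of freedom; tests were two-sided with Benjamini-Hochberg adjustment over 16975 genes at 0.05. Log2 fold changes rest on counts, levels are TPM, and the 2 can differ where RSEM's lengths or the TPM total move. Alternatives used DESeq2 1.42.0, limma 3.58.1 on log2(TPM + 1), other scalings and filters, a replicate block and each library left out. The script was tested on simulated data. Replicates differed by more than sampling noise (chi-square per degree of freedom 7.57 to 8.60).

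The members and lists were chosen with earlier results of these data known. Genes named were the sensors and Hspa5, in each group the 3 largest called changes of each comparison, calls past 2-fold, paralogs, the member nearest to no change, and the 2 largest changes each way in the other lists with Ern2, Atf4, Ddit3 and Eif2ak3. Some other members are named to complete a group, after their values were seen. A gene that this rule names in the other lists is not reported here.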

Additional observations from a re-analysis of the deposited data

How the results depend on the processing

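The counts of members lower at 0.5 µg/ml, against control and between the doses, stayed within 1.5 times of 32 and 31 in all 16 alternatives, as did most others. With limma on log2(TPM + 1), log2(TPM + 0.1) and every gene above 0, the members higher were 9, 9 and 8 of 15 at 0.5 µg/ml, 3, 3 and 1 of 14 at 0.1 µg/ml, and 5, 5 and 4 of 9 between the doses, and those lower at 0.1 µg/ml were 2, 2 and 1 of 5. Upper quartile scaling and total counts gave 7 and 8 higher and 14 and 13 lower at 0.1 µg/ml, and fitting only the 2 groups compared gave 9 higher. Leaving out 1 library gave 3 to 10 higher and 0 to 9 lower at 0.1 µg/ml, 11 to 15 higher and 26 to 33 lower at 0.5 µg/ml, and 6 to 10 higher and 25 to 31 lower between the doses. Sec16a at 0.5 µg/ml turned to -0.0452, -0.0465 and -0.0452 in the 3 limma fits. The cause was not tested. No scaling moved the median of all genes by over 0.1; the furthest shift was -0.0937 (limma on log2(TPM + 0.1), 0.5 µg/ml), with 42.4% of all calls higher against 50.9%.

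With the replicate number as a block, 15 members were higher and 31 lower at 0.5 µg/ml, 12 and 6 at 0.1 µg/ml, and 9 and 30 between the doses. Replicate differences of the groups correlated at -0.11, 0.11 and -0.02 across genes, and the labels name no shared animal or day, so the samples share only a number.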
